A study of Mus musculus with 2 samples.

Results

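Kupffer cells were taken as barcodes with at least 1 unique molecular identifier (UMI, 1 counted transcript) of Clec4f and at least 3 UMIs of Clec4f, Vsig4 and Cd5l together. They also had at least 3 UMIs of the complement genes C1qa, C1qb and C1qc. They had at most 1 UMI of Cd3d, Cd3e and Cd3g, none of Cd79a and at most 2 of Stab2 and Clec4g. These limits are meant to keep T, B and sinusoidal endothelial cells out, but transcripts of other cell types remained. This gave 612 Kupffer cells among 21304 barcodes that passed the cell filters of at least 500 UMIs, at least 200 genes and at most 25% mitochondrial UMIs. The hKO library held 120 of them and the WT library 492. The levels of these gate genes chose the cells, so they are given as a description only.

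Kupffer cells are the resident macrophages of the liver. They sit in the sinusoids, take up bacteria, dead cells and worn-out red cells from the blood, and recycle the iron of the red cells. In mice CLEC4F, a C-type lectin, is found almost only on Kupffer cells, VSIG4 is a complement receptor, and CD5L is a secreted scavenger protein. TIM4 (Timd4), a receptor for dead cells, marks the long-lived Kupffer cells that seed the liver before birth, and it is known that in fatty liver disease part of these cells is replaced from blood monocytes.

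The hKO library came from tumors of mice labelled FABP5 hKO, in which a tamoxifen-activated Cre under the albumin promoter (Alb-CRE-ER) removes Fabp5, a fatty acid binding protein, from hepatocytes. The WT library came from tumors of WT littermates; the sources used here do not say whether these carried the Cre or the altered Fabp5 allele. All mice were C57BL/6J, received tamoxifen from 6 to 8 weeks of age (5 injections of 100 mg/kg, 3 days apart, each following a 16 h fast) and, starting 2 weeks after the last dose, the CD-HFD diet, a choline-deficient high-fat diet, for 15 months. Each library was 1 droplet-based 3′ single-cell preparation from a pool of 2 to 3 hepatocellular carcinomas, so there is 1 sample per group, no test or p-value was possible, and every interval covers counting error only.

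The libraries held 18657 hKO barcodes with 68010317 UMIs and 14289 WT barcodes with 58772330 UMIs, of which 11451 and 9853 passed the cell filters. In hKO 36.8% of deposited barcodes were over the mitochondrial limit, against 18.5% in WT. There were 73 barcode sequences present in both libraries, and no Kupffer barcode of one library was a Kupffer barcode of the other.

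The gate removed barcodes step by step. A Clec4f UMI was found in 275 hKO and 962 WT barcodes, and 185 and 709 of these reached the sum of 3. The C1q minimum left 172 hKO and 676 WT barcodes, the Cd3 limit 134 and 587, and the Cd79a limit 130 and 560. The final Kupffer cells were deeper in hKO, with a median of 5122 UMIs (range 500 to 27659), than in WT, with a median of 3033 UMIs (range 503 to 19093). They held 678487 UMIs in hKO and 2090031 in WT. Under 2000 UMIs lay 28 hKO and 175 WT Kupffer cells, and 92 hKO and 317 WT cells had 2000 UMIs or more. Their median mitochondrial share was 9.63% in hKO and 10.6% in WT.

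Transcripts of other cell types were present in these cells and differed between the libraries. In 46 hKO (38.3%) and 187 WT (38.0%) Kupffer cells, T or NK, B, neutrophil, plasmacytoid, monocyte or endothelial markers reached 2 UMIs. Endothelial markers alone did so in 27 hKO (22.5%) and 146 WT (29.7%) Kupffer cells. The list of 12 hepatocyte genes, all detected in both libraries, summed to 7512 CPM in hKO and 2013 CPM in WT (CPM counts the UMIs of a gene in every 1000000 UMIs of the Kupffer cells of that library). It passed 1% of a cell's UMIs in 31 hKO Kupffer cells (25.8%) and 37 WT Kupffer cells (7.52%). Erythroid genes, chiefly hemoglobin, went the other way, with 6606 CPM in hKO and 16681 CPM in WT. Neutrophil markers summed to 108 CPM in hKO and 298 CPM in WT, with Cxcr2, Ly6g, Camp and Ltf at 0 in hKO and Ly6g and Camp at 0 in WT. B and plasma cell markers summed to 78.1 CPM in hKO, where Ms4a1, Pax5 and Iglc2 were among those at 0, and 323 CPM in WT. T and NK markers summed to 136 CPM in hKO, where Cd8a, Gzma and Ncr1 were at 0, and 253 CPM in WT. Stellate and fibroblast markers summed to 19.2 CPM in hKO, with Dcn, Col1a1, Col1a2, Col3a1 and Des at 0, and 34.0 CPM in WT. Markers of sinusoidal endothelial cells (203 CPM in hKO and 267 CPM in WT), plasmacytoid dendritic cells (657 and 727 CPM), conventional dendritic cells (177 and 169 CPM), cholangiocytes (91.4 and 169 CPM) and platelets (703 and 579 CPM) completed the other types. The part of all these transcripts in the differences given below was not tested.

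**Figure D1:**
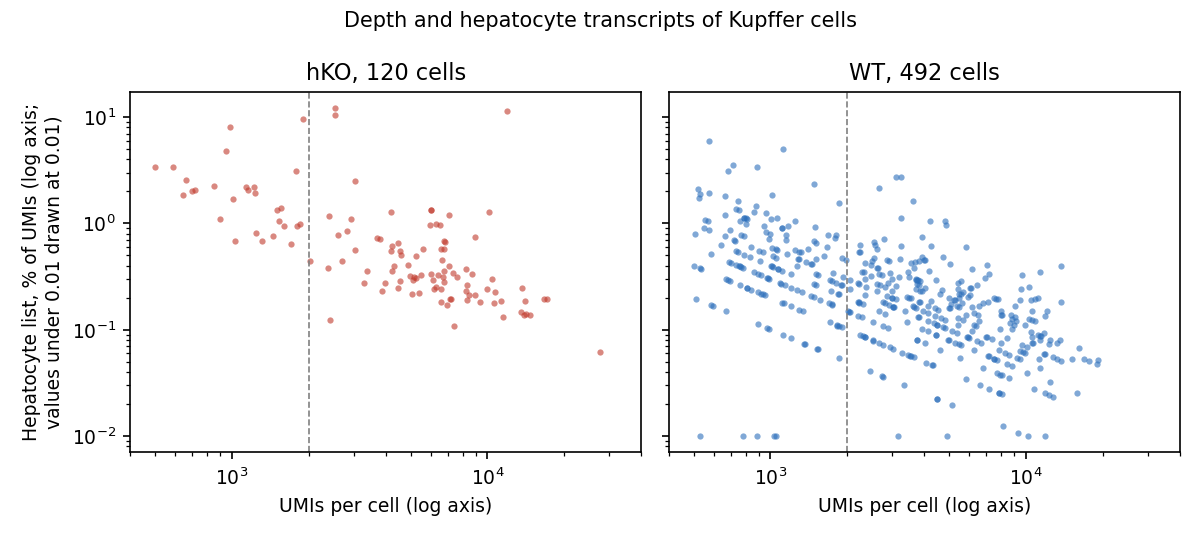
Each point is 1 Kupffer cell, hKO on the left and WT on the right; the x axis is its UMIs and the y axis the share of its UMIs from the 12 hepatocyte genes, both on log axes, with the dashed line at 2000 UMIs. Shallow cells carry larger hepatocyte shares in both libraries, and the hKO cells lie higher, with a median share of 0.449% against 0.199% in WT.

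The gate genes themselves stood at 1584 CPM for Clec4f in hKO and 2007 CPM in WT, with a median of 5 Clec4f UMIs per cell in both libraries. Cd5l stood at 2986 CPM in hKO and 4574 CPM in WT, and Vsig4 at 803 CPM and 1470 CPM. Vsig4 had a UMI in 69 of 120 hKO and 372 of 492 WT Kupffer cells. Folr2, a folate receptor of Kupffer cells that the gate does not use, stood at 330.1 CPM in hKO and 560.3 CPM in WT. In macrophages of the same library that passed the other gate steps but had no UMI of Clec4f, Vsig4 or Cd5l (1949 in hKO and 675 in WT, called C1q macrophages below), Folr2 stood at 2.07 CPM in hKO and 14.2 CPM in WT. Timd4, the remaining marker, stood at 25.1 CPM in hKO and 102 CPM in WT Kupffer cells, against 4.14 and 4.26 CPM in C1q macrophages. Both markers outside the gate were thus higher in the gated cells than in the other macrophages of their library, and Timd4 was the sparser of them.

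Kupffer cells made up 1.05% of the hKO barcodes that passed the filters (95% Clopper-Pearson interval 0.870 to 1.25) and 4.99% of the WT barcodes (4.57 to 5.44). Among all barcodes that passed the C1q, Cd3, Cd79a and endothelial steps, they were 4.72% of 2544 in hKO (3.93 to 5.61) and 26.9% of 1828 in WT (24.9 to 29.0). Among barcodes of 2000 UMIs or more the share was 1.04% in hKO and 4.14% in WT, and below that 1.09% and 7.94%. The share was therefore lower in hKO at both depths. A smaller share of the cells with Vsig4 or Cd5l carried Clec4f in hKO: of C1q-positive barcodes with at least 3 UMIs of Vsig4 and Cd5l, a Clec4f UMI was present in 107 of 307 in hKO (34.9%, 29.5 to 40.5) and 470 of 843 in WT (55.8%, 52.3 to 59.1). Dissociation and the mitochondrial limit act on these shares; their part was not tested.

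At the edge of the gate, 8 hKO and 8 WT Kupffer cells had a Clec4f, Vsig4 and Cd5l sum of exactly 3, and 9 hKO and 16 WT barcodes with a Clec4f UMI had a sum of 2 and so fell outside. The cells just inside held 4 Folr2 UMIs in hKO and 7 in WT, and those just outside 5 in hKO and 6 in WT. Timd4 had 0 UMIs in the cells just inside in both libraries and 1 UMI just outside in each. These counts are too small to rank the cells on either side of the limit.

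Kupffer cells differed from the C1q macrophages of their own library in many genes. A gene was called when it reached 100 CPM in either population, its log2 ratio was at least 1 in size and its exact binomial 95% counting interval excluded 0. Of 2061 genes tested in hKO, 7.33% were called higher and 4.46% lower in Kupffer cells; of 2017 in WT, 9.62% and 6.45%. After abundant gene kinds, gate genes and possible free RNA were taken out, 120 genes were higher and 43 lower in both libraries. Both populations were chosen by Clec4f, Vsig4 and Cd5l, so these values describe them.

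The genes highest in Kupffer cells, ranked by the weaker of both libraries, were Kcnj16, Fcna, C6, Folr2, Cd207, Fabp7, Ank2 and Dmpk. Kcnj16, a potassium channel subunit, had 76 UMIs in hKO Kupffer cells against 13 in the far more numerous hKO C1q macrophages (log2 ratio of the CPM 6.23), and 561 in WT Kupffer cells against 10 in WT C1q macrophages (6.24). Fcna, the lectin ficolin A that binds microbial sugars and starts complement, stood at 259 against 4.03 CPM in hKO and 744 against 16.0 CPM in WT. C6, a component of the terminal complement complex, had log2 ratios of 5.45 in hKO and 7.46 in WT. Fabp7, a relative of the targeted Fabp5, stood at 549.8 CPM in hKO and 621.5 CPM in WT Kupffer cells, with log2 ratios over C1q macrophages of 7.13 and 4.67. Ank2, a membrane adaptor, and the kinase gene Dmpk had ratios of 4.53 and 4.98 in hKO and 4.38 and 4.29 in WT.

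Among the 8 genes lowest in Kupffer cells were Cxcl9, Mctp1, Gpr141, Fcgr2b, Slamf7, Negr1 and Retreg1. Cxcl9, an interferon-induced chemokine that attracts T cells, stood at 45.7 CPM in hKO Kupffer cells against 258 CPM in hKO C1q macrophages, and at 27.3 CPM in WT Kupffer cells against 139 CPM. Fcgr2b, the inhibitory receptor for IgG, stood at 42.7 against 156 CPM in hKO and 28.7 against 197 CPM in WT. Slamf7, a surface receptor of immune cells, had log2 ratios of −1.71 in hKO and −2.48 in WT. These 7 genes had ratios between −2.50 and −1.67 in hKO and between −2.78 and −2.07 in WT.

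**Figure D2:**
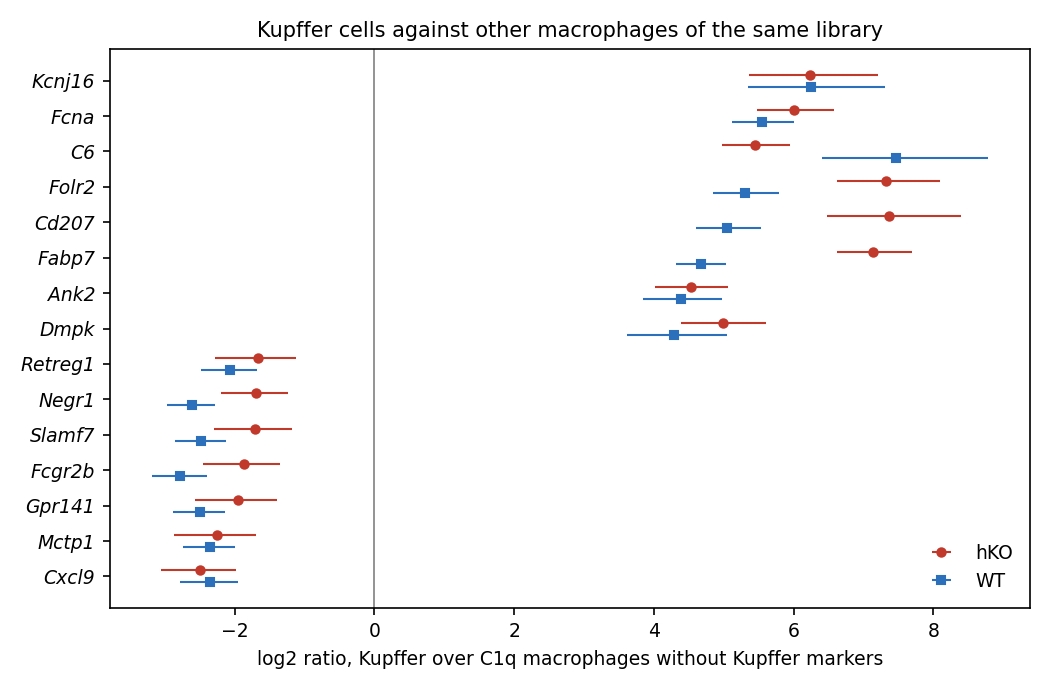
The x axis is the log2 ratio of Kupffer cells over C1q macrophages of the same library, circles for hKO and squares for WT, with 95% counting intervals, for the 8 highest genes and 7 of the 8 lowest. All genes drawn lie on the same side of 0 in both libraries; Folr2, Cd207 and Fabp7 are farther from 0 in hKO and C6 in WT.

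Between the genotypes, several Kupffer identity genes were lower in hKO than in WT Kupffer cells. Of the 18 genes of the identity list, 13 reached 100 CPM in a library. Timd4 did so in WT alone (102 CPM, against 25.1 CPM in hKO), so its high WT level also chose it for these counts. All 13 had ratios below 0, 4 were called lower (Timd4, Fcna, Cd207 and Kcnj16) and none higher, with a median log2 ratio of −0.81; the list summed to 4168 CPM in hKO and 6753 CPM in WT. Over all 2005 genes tested in Kupffer cells, 1.20% were called lower and 4.69% higher, with a median log2 ratio of −0.00. The same list in C1q macrophages, which were chosen to lack Kupffer markers, had 3 genes at 100 CPM, none of them called, and a median of −0.18. Under that floor, Fcna, Cd207 and Kcnj16 had ratios of −1.99, −3.52 and −1.25 in C1q macrophages, and Timd4 −0.04. Each of these rests on at most 45 UMIs in a library, so the 2 populations cannot be contrasted in these genes.

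Timd4 had 17 UMIs in hKO Kupffer cells and 214 in WT Kupffer cells, or 25.1 CPM (exact Poisson interval 14.6 to 40.1) against 102 CPM (89.1 to 117), a log2 ratio of −2.03 (−2.84 to −1.32). A Timd4 UMI was present in 8 of 120 hKO cells (6.67%, 2.92 to 12.7) and 90 of 492 WT cells (18.3%, 15.0 to 22.0). The hKO cells were the deeper ones. With every cell reduced to 1000 UMIs, the mean share over all possible draws was 2.09% of 110 hKO cells and 8.52% of 408 WT cells, after 10 hKO and 84 WT cells were too shallow to enter. In T or NK cells, taken as background, 0.273% of hKO cells (median 4196.5 UMIs) and 0.342% of WT cells (median 4017 UMIs) had a UMI. Of the 17 hKO UMIs 5 lay in 1 cell, and without the cell with the most UMIs in each library the ratio was −2.45.

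Fcna had 176 UMIs in hKO and 1556 in WT Kupffer cells, a log2 ratio of −1.52 (−1.75 to −1.30). It was found in 60 of 120 hKO and 338 of 492 WT Kupffer cells, and in 21.5% and 45.8% at 1000 UMIs per cell. In T or NK cells it was found in 1.64% of hKO and 5.04% of WT cells as deposited. Cd207, which encodes langerin, a C-type lectin also known from Langerhans cells and a neighbour of Clec4f in the genome, had 141 UMIs in hKO and 1006 in WT (log2 −1.21, −1.48 to −0.96). It was found in nearly the same share of cells, 35.8% in hKO and 37.2% in WT. In 1 draw of 1000 UMIs per cell, which puts all cells at equal depth, it was found in 11.8% of hKO and 22.5% of WT cells. Kcnj16 had 76 UMIs in hKO and 561 in WT (log2 −1.26, −1.63 to −0.91).

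Other identity genes had ratios below 0 that were too small for the call. Folr2 had a log2 ratio of −0.76 (−0.98 to −0.56), and it was found in 61.7% of hKO and 61.2% of WT Kupffer cells, or 27.5% and 37.4% at 1000 UMIs per cell. Il18bp, which neutralises the cytokine IL-18, stood at 298 CPM in hKO and 557 CPM in WT (log2 −0.90). C6 stood at 236 and 437 CPM (log2 −0.89), and Clec1b, the CLEC-2 receptor of Kupffer cells and platelets, at 261 and 459 CPM (log2 −0.81). Ratios nearest 0 in this list were those of Cdh5, which encodes VE-cadherin (−0.20), of Csf1r, the receptor for the growth factor CSF1 (−0.21), and of Adgre1, which encodes F4/80 (−0.25). Marco, a scavenger receptor for bacteria, had 4 UMIs in 1 hKO cell and 148 UMIs in 23 WT cells, 49 of them in 1 cell, and Cd163, the receptor for hemoglobin and haptoglobin, had 2 UMIs in hKO and 36 in WT. Neither reached 100 CPM in a library.

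**Figure D3:**
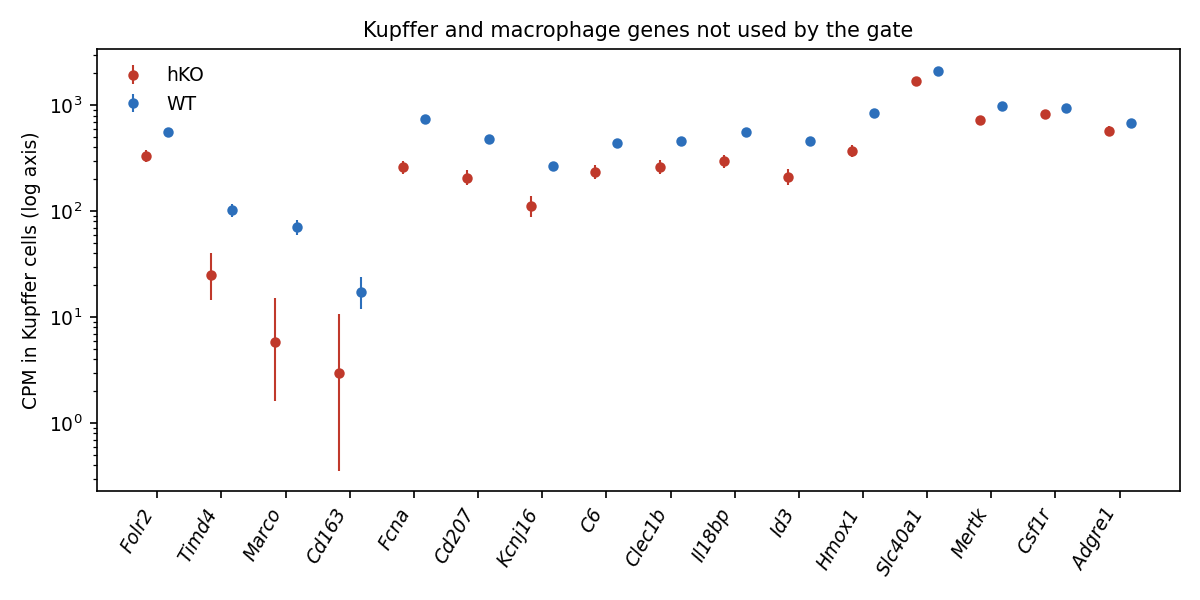
The y axis is the level in Kupffer cells (CPM, log axis) with exact Poisson 95% intervals, hKO left of WT for each of 16 genes. All 16 genes drawn lie lower in hKO, with the smallest gaps for Csf1r and Adgre1. The widest intervals are those of Marco and Cd163, which rest on 4 and 2 hKO UMIs. The genes were picked from several lists and do not stand for all their members. Of the 11 transcription regulators at 100 CPM, only Id3 is drawn, while 4 have ratios above 0 and 7 below.

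The stretches of 250 bases before the start of Clec4f and of 3 genes that were lower in hKO are printed because these genes share the cell type; they come from RefSeq, build GRCm38.p6, where all 4 genes were matched. The submitters' processing notes name mm9, so the positions belong to the RefSeq build alone. Capitals mark GAGGAA, the core bound by PU.1 (Spi1), and TGCTGA, the half-site of MAF factors, each searched on both strands; the 2 motifs share no bases in these windows.

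Clec4f (chr6:83656117-83656366, minus strand): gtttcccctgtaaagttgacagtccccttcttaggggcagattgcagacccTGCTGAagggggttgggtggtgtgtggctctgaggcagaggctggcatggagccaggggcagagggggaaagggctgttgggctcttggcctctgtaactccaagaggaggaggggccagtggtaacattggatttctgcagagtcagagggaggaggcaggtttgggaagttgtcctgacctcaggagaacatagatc
Cd207 (chr6:83677858-83678107, minus strand): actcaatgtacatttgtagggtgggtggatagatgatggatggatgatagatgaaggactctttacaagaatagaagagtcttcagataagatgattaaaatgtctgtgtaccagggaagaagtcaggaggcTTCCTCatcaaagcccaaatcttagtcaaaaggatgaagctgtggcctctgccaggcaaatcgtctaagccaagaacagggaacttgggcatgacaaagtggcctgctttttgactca
Timd4 (chr11:46810549-46810798, plus strand): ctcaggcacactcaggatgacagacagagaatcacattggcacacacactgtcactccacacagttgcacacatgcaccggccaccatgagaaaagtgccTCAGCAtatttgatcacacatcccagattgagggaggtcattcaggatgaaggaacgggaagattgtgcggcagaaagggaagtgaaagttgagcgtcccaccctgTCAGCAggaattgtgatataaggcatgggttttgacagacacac
Fcna (chr2:25627975-25628224, minus strand): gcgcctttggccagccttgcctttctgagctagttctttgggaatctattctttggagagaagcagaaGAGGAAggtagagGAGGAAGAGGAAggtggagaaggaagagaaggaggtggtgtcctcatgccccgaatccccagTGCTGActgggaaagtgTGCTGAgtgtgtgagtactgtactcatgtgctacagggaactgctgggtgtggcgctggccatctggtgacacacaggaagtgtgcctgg

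GAGGAA was present in 23.3% of 32851 windows of this length and TGCTGA in 16.1%. Fcna held 3 copies of the first and 2 of the second, Timd4 2 of the second alone, Cd207 1 of the first alone and Clec4f 1 of the second alone. A match of letters is a description and not a binding site. Spi1 was measured at 364 CPM in hKO and 427 CPM in WT Kupffer cells (log2 −0.23) and Maf at 407 CPM in hKO and 504 CPM in WT (−0.31).

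Of 15 transcription regulators of liver macrophages, 11 reached 100 CPM, with 1 called lower, none higher and a median log2 ratio of −0.23. The 1 was Id3, a helix-loop-helix inhibitor needed by Kupffer cells in mice, with 143 UMIs in hKO and 962 in WT (log2 −1.13, −1.39 to −0.87). Id3 was also lower in hKO C1q macrophages (log2 −2.06). Nr1h3, the oxysterol receptor LXRα that maintains Kupffer identity, stood at 327 CPM in hKO and 292 CPM in WT (log2 0.16, −0.06 to 0.39), and Spic, the regulator of iron-recycling macrophages, at 103 and 143 CPM (log2 −0.47, −0.87 to −0.09). Zeb2 was at 2075 CPM in hKO and 2058 CPM in WT, a difference within counting error.

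Across all genes tested, 94 were called higher in hKO Kupffer cells and 24 lower. Of the 94, 14 were mitochondrial, ribosomal-protein or predicted genes and 36 stood over 10 times higher in another gated population of the same library and were set aside as possible free RNA, which left 44. Of the 24, 4 and 3 were taken out the same way, which left 17. The same comparison in C1q macrophages called 4.59% of 1937 genes higher and 1.19% lower, so the number of calls in Kupffer cells was close to that in the other macrophages.

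The 12 lowest genes of the 17 were Fkbp5, Timd4, Ccdc148, Dlc1, Fcna, Dst, Kcnj16, Cd207, Ctla2b, Pla2g7, Hmox1 and Hpgd. Among them, Fkbp5, Timd4, Ccdc148, Dlc1 and Ctla2b reached 100 CPM in WT alone, so their high WT levels also chose them for this ranking. Fkbp5, a cochaperone of the glucocorticoid receptor that glucocorticoids induce, had 28 UMIs in hKO and 545 in WT Kupffer cells, or 41.3 CPM against 261 CPM (log2 −2.66, −3.26 to −2.11). It was found in 21 of 120 hKO and 218 of 492 WT Kupffer cells. It was also lower in C1q macrophages (43.0 CPM in hKO and 137 CPM in WT, log2 −1.67). Of 7 glucocorticoid-responsive genes at 100 CPM, Fkbp5 was the 1 called lower and none was called higher. Tsc22d3, which encodes GILZ, stood at 88.4 CPM in hKO and 144 CPM in WT (log2 −0.71), and Mt1 at 186 and 97.6 CPM (0.93).

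Pla2g7, which breaks down the platelet-activating factor, stood at 292 CPM in hKO and 669.8 CPM in WT (log2 −1.20), and Hpgd, which inactivates prostaglandins, at 402 and 916 CPM (−1.19). At 1000 UMIs per cell, Pla2g7 was found in 20.7% of hKO and 45.7% of WT Kupffer cells and Hpgd in 26.8% and 51.7%. Hmox1, the heme oxygenase that opens heme and frees its iron, stood at 371 CPM in hKO and 847 CPM in WT (log2 −1.19, upper bound −0.999), and at 122 and 133 CPM in C1q macrophages (−0.12, −0.30 to 0.05). Dst, a cytoskeletal linker, had 83 UMIs in hKO and 640 in WT, Dlc1, a GTPase-activating protein, 24 and 219, Ctla2b, a protease inhibitor-like gene, 66 and 469, and Ccdc148, a gene of unclear role, 39 and 371. The last was almost absent from C1q macrophages, with 31 UMIs in hKO and 1 in WT. Outside these 12, the remaining 5 lower genes were Id3, Ubb, Ccnd3, Wdr83os and Tnfaip8l2, the first with a ratio of −1.13 and the others closer to −1.

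The 12 highest genes of the 44 were Ces1c, Itih4, Mug1, Fn1, Pf4, S100a4, Gdpd3, Plcb1, S100a6, Tmsb10, Ccr2 and Mrpl33. All of them except Tmsb10 reached 100 CPM in hKO alone, so their high hKO levels also chose them for this ranking. The first, Ces1c, Itih4 and Mug1, encode plasma proteins that hepatocytes secrete. Ces1c had 71 UMIs in hKO and 11 in WT (log2 4.31), Itih4 108 and 32 (3.38) and Mug1 115 and 45 (2.98). The same genes were higher in hKO C1q macrophages, with ratios of 3.36, 2.65 and 2.20, and they go with the hepatocyte list that was higher in hKO Kupffer cells; its part in them was not tested.

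Several genes that monocytes carry were higher in hKO Kupffer cells. Of 19 genes of the monocyte list, 8 reached 100 CPM, 4 were called higher (Fn1, S100a4, S100a6 and Ccr2) and 1 lower (S100a9), with a median log2 ratio of 1.33. The 4 called higher reached 100 CPM in hKO alone, so their high hKO levels also chose them for this median. The whole list summed to 5412 CPM in hKO and 5707 CPM in WT (log2 −0.08), so as a sum it was not higher in hKO. Lyz2, lysozyme, alone gave 2492 CPM of this sum in hKO and 3623 CPM in WT. The sum therefore depends strongly on 1 gene and does not speak for the other members. Ccr2, the chemokine receptor by which monocytes leave the marrow, had 105 UMIs in hKO and 102 in WT, or 155 CPM against 48.8 CPM (log2 1.66, 1.26 to 2.07). It was found in 17 of 120 hKO (14.2%) and 32 of 492 WT (6.50%) Kupffer cells, beside 7.98% of hKO and 2.24% of WT B cells. S100a4, a calcium-binding protein of motile cells, had 205 UMIs in hKO and 138 in WT (log2 2.19, 1.88 to 2.52), and its relative S100a6 173 and 154 (1.79, 1.47 to 2.11). Plac8 stood at 423 CPM in hKO and 213 CPM in WT, with a ratio of 0.99 that fell just short of the call. The ratio of Lyz2 was −0.54.

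These monocyte genes lay in few cells. S100a4 was found in 23 of 120 hKO Kupffer cells and 29 of 492 WT Kupffer cells, and 5 cells held 51.2% of its hKO UMIs. For Ccr2 the 5 highest cells held 62.9% of the hKO and 48.0% of the WT UMIs. In C1q macrophages the ratios were smaller, or on the other side of 0: 0.90 for S100a4, 0.92 for S100a6 and −0.48 for Ccr2, whose level there was 336 CPM in hKO and 469 CPM in WT. The monocyte markers Ly6c2, Ccr2, Chil3 and Plac8 together reached 2 UMIs in 22 of 120 hKO (18.3%) and 47 of 492 WT (9.55%) Kupffer cells. The neutrophil genes S100a8 and S100a9 went the other way, with 16 S100a9 UMIs in hKO, 13 of them in 1 cell, and 254 in WT.

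Fn1, fibronectin, which hepatocytes and monocytes both make, had 106 UMIs in hKO and 45 in WT (log2 2.86, 2.34 to 3.40). A UMI was found in 30.8% of hKO and 6.91% of WT Kupffer cells, beside 22.7% of hKO and 5.28% of WT B cells, taken as background, at median depths of 2926.5 and 3363 UMIs. At 1000 UMIs per cell it was 11.2% of hKO and 2.98% of WT Kupffer cells, beside 8.42% and 1.60% of B cells, so the background differed between the libraries in the same direction. Pf4, a platelet chemokine, had 262 UMIs in hKO and 158 in WT (log2 2.35), but 204 of the 262 hKO UMIs were in 1 cell. Without the cell with the most Pf4 UMIs in each library the ratio was 0.35 (−0.12 to 0.80), and Ppbp, another platelet chemokine, had 0 UMIs in hKO and 37 in WT.

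Gdpd3, a lysophospholipase D, had 86 UMIs in hKO and 65 in WT (log2 2.03) and a similar ratio in C1q macrophages (1.82). Plcb1, a phospholipase C, had 72 UMIs in hKO and 60 in WT (1.89), found in 11 hKO and 16 WT cells. Tmsb10, a thymosin that binds actin, stood at 416 CPM in hKO and 128 CPM in WT (1.70), and Mrpl33, a mitochondrial ribosome protein, at 168 and 56.0 CPM (1.59). Many of the other called genes encode small subunits of the respiratory chain and ATP synthase. This group was chosen after the calls were seen, so its counts are a description only. Of 61 such genes tested in Kupffer cells 13 were higher, none lower, and the median was 0.68, where 4.69% of all 2005 genes were called higher. In C1q macrophages 14 of 62 were higher, none lower, and the median was 0.65. Of 77 ribosomal-protein genes 10 were higher in Kupffer cells and none lower (median 0.55).

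**Figure D4:**
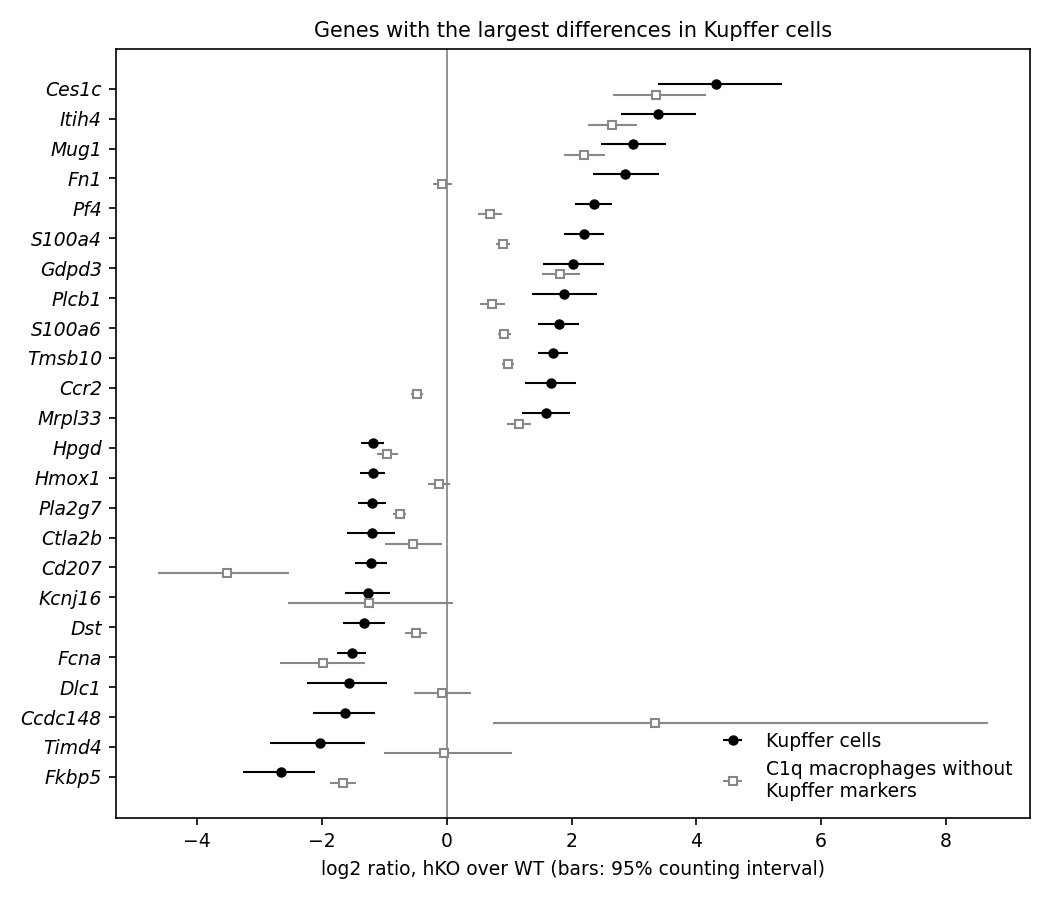
The x axis is the log2 ratio hKO over WT, with 95% counting intervals, for the 12 highest and 12 lowest genes in Kupffer cells (black circles) beside C1q macrophages (open squares). Fkbp5, Fcna, Cd207 and the plasma protein genes lie on the same side of 0 in both populations, while Dlc1, Fn1 and Hmox1 lie near 0 in C1q macrophages. Timd4 also lies near 0 there, but on 36 hKO and 12 WT UMIs, and Ccdc148 rests on 1 WT UMI.

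Genes of iron handling, a main task of Kupffer cells, mostly had ratios below 0. Of 14 genes 11 reached 100 CPM, 10 of them below 0, with 1 called lower (Hmox1), 1 higher (Hpx) and a median of −0.51. The ferritin chains Ftl1 and Fth1 stood at 5542 and 4199 CPM in hKO and 10307 and 7560 CPM in WT (log2 −0.90 and −0.85), and Blvrb, which reduces biliverdin, at 343 CPM in hKO and 651 CPM in WT (−0.92). Slc40a1, ferroportin, the iron exporter, was at 1677 CPM in hKO and 2119 CPM in WT (−0.34). In C1q macrophages the ratios were −0.79 for Ftl1 and −0.40 for Fth1. Hpx, hemopexin, a hepatocyte plasma protein, had 237 UMIs in hKO and 117 in WT and was among the genes set aside. Of 16 genes of oxidant defence, 10 reached 100 CPM, with 1 called lower (Hmox1 again), none higher and a median of −0.30. Hemoglobin itself was lower in hKO Kupffer cells: Hbb-bs stood at 3443 CPM in hKO and 10220.4 CPM in WT (log2 −1.57). In C1q macrophages Hbb-bs stood at 1649 CPM in hKO and 13452 CPM in WT (log2 −3.03). The difference was thus not particular to Kupffer cells. A Hbb-bs UMI was in 34.2% of hKO and 94.9% of WT Kupffer cells, and 1 cell held 53.4% and 5 cells 98.2% of the hKO UMIs, against 12.5% and 50.6% of the WT UMIs. Without the cell with the most Hbb-bs UMIs in each library the levels were 1619 CPM in hKO and 8965 CPM in WT, a ratio of −2.47 (−2.56 to −2.38). The part of hemoglobin in the iron genes was not tested.

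Receptors for dead cells and lipids differed little apart from Timd4. Of 15 receptor and bridging genes, 7 reached 100 CPM, with 1 called lower (Timd4), none higher and a median of −0.15. Timd4 reached 100 CPM in WT alone, so its high WT level also chose it. Mertk, a kinase receptor for dead cells, stood at 722 CPM in hKO and 976 CPM in WT (−0.43), Axl, its relative, at 459.8 and 509 CPM (−0.15), and Cd36, which takes up fatty acids, at 516 and 571 CPM (−0.15, −0.32 to 0.03). Msr1, a scavenger receptor, was at 405 CPM in hKO and 404 CPM in WT. Of 24 genes of fatty acid and cholesterol handling, 15 reached 100 CPM, 1 was called higher (Fabp1, the liver form, set aside) and none lower, with a median of −0.16. Apoe, the most abundant lipid gene, stood at 17290 CPM in hKO and 27876 CPM in WT (log2 −0.69, −0.72 to −0.66), and at 9994 and 16258 CPM in C1q macrophages (−0.70).

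Fabp5 itself, the gene removed from hepatocytes, was sparse in Kupffer cells: 7 UMIs in hKO and 10 in WT, or 10.3 and 4.78 CPM (log2 1.11, −0.52 to 2.65). These counts do not separate the libraries. Of 18 genes of lipid-associated macrophages, 14 reached 100 CPM, with 1 called lower (Spp1, set aside), none higher and a median of −0.15. Lgals3, galectin 3, stood at 735 CPM in hKO and 1096 CPM in WT (−0.58).

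Complement genes outside the gate had ratios on both sides of 0. Of 14, 7 reached 100 CPM, 2 were called higher (C3 and C4b), none lower, and the median was 0.19. C3 had 351 UMIs in hKO and 101 in WT (3.42) and was set aside, since hepatocytes hold it at much higher levels, while C4b had 68 and 84 UMIs (1.32). Cfp, properdin, which stabilises complement on surfaces, stood at 534 CPM in hKO and 789 CPM in WT (−0.56). The C1q genes, part of the gate, had ratios of −0.67, −0.97 and −0.56 for C1qa, C1qb and C1qc.

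The antigen presentation lists had small medians in Kupffer cells. None of 11 MHC class II genes and none of 9 class I genes at 100 CPM was called in either direction, with medians of −0.17 and 0.00. Over all 2005 genes tested, 4.69% were called higher and 1.20% lower, so no calls in lists this short are near that share. In C1q macrophages no class II gene was called either, but the median was −0.52. The list summed there to 26010 CPM in hKO and 38786 CPM in WT. Cd74, the invariant chain, stood at 5341 CPM in hKO and 6160 CPM in WT (−0.21), H2-Aa at 2336 and 2146 CPM (0.12), and Ifi30, a lysosomal thiol reductase for antigens, at 685 and 1107 CPM (−0.69). None of 6 checkpoint genes was called; Cd274, which encodes PD-L1, had 70 UMIs in hKO and 194 in WT (0.15, −0.26 to 0.55). Interferon-response genes (5 at 100 CPM, median 0.28), cytokines (7, median 0.22), glycolysis genes (6, median 0.05), lysosome genes (18, median −0.13) and immediate early genes of dissociation stress (13, median 0.13) also had no called member. Nlrp3, a member of the cytokine list, reached 100 CPM in hKO alone (106 CPM, against 66.0 CPM in WT). Its hKO level thus also chose it for that median. Ifi27l2a, an interferon-induced gene, stood at 654 CPM in hKO and 403 CPM in WT (0.70, 0.53 to 0.87), and Il1b, an inflammatory cytokine, at 311 and 214 CPM (0.54, 0.29 to 0.78). Of the 211 Il1b UMIs in hKO, 69 were in 1 cell, and without the cell with the most Il1b UMIs in each library the ratio was 0.07 (−0.21 to 0.35).

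Of 25 chemokines and receptors, 9 reached 100 CPM, with 2 called higher (Pf4 and Ccr2), 1 lower (Cxcl2, a neutrophil attractant, set aside) and a median of −0.37. Ccl6 and Ccl9, chemokines of macrophages, were at 534 and 98.7 CPM in hKO and 801 and 167 CPM in WT (−0.59 and −0.76). Ccl8, a monocyte attractant, had 31 UMIs in each library, or 45.7 CPM in hKO and 14.8 CPM in WT, and stayed under the 100 CPM needed for a call. It was found in 10 hKO and 14 WT Kupffer cells.

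Cell cycle genes were sparse. Of 16, 3 reached 100 CPM (Pcna, Tubb5 and Hmgb2), none was called, and the median was 0.39. A UMI of Mki67 or Top2a was found in 15 of 120 hKO (12.5%, 7.17 to 19.8) and 19 of 492 WT Kupffer cells (3.86%, 2.34 to 5.97) (5.45% and 1.72% in 1 draw of 1000 UMIs per cell). Their summed levels did not differ in the same way: Mki67 stood at 41.3 CPM in hKO and 42.6 CPM in WT, and Top2a at 19.2 and 20.1 CPM. No order is read from the shares, since they go against these levels. In B cells the share with a UMI of either gene was 3.03% in hKO and 2.88% in WT.

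**Figure D5:**
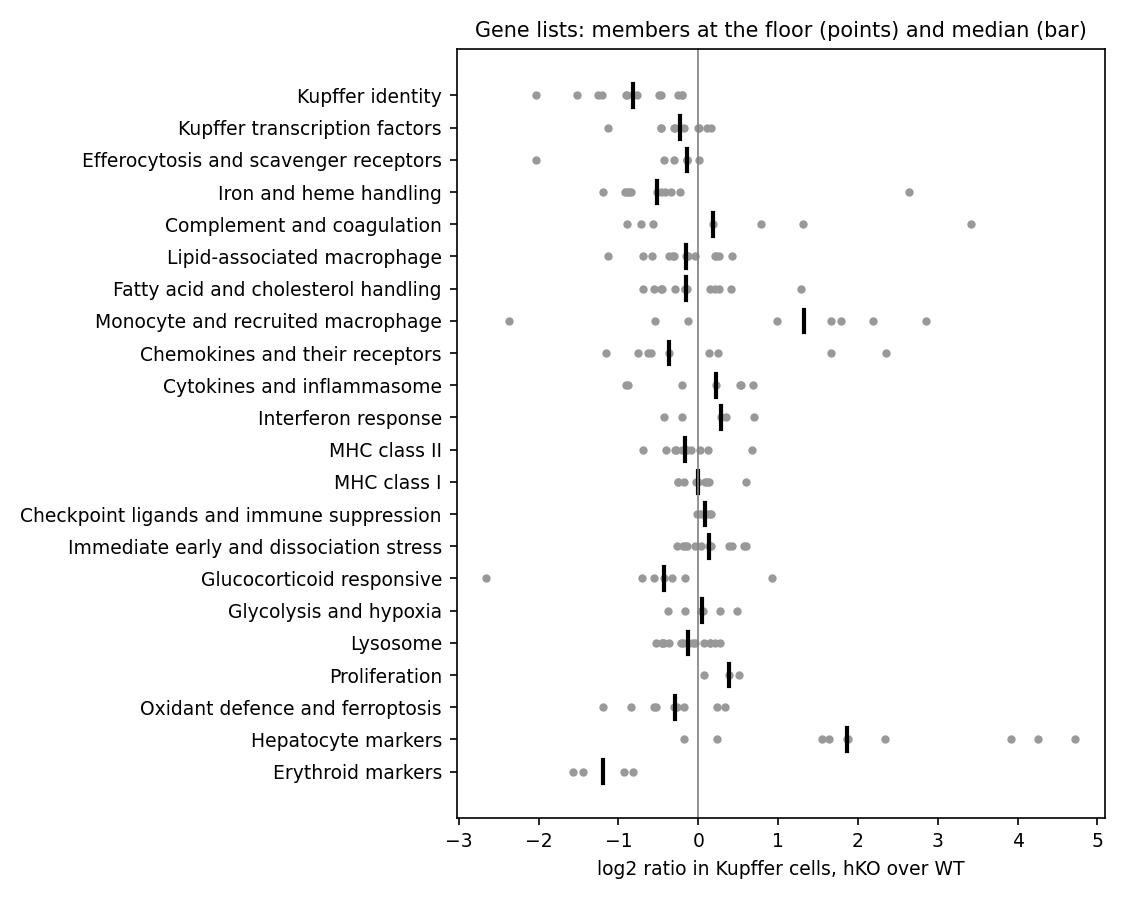
Each grey point is the log2 ratio hKO over WT of 1 gene at 100 CPM or more in Kupffer cells, by gene list, and the black bar is the median of the list; lists with fewer than 3 such genes are not drawn. Kupffer identity genes lie wholly below 0 and hepatocyte markers mostly above it, while most other lists straddle 0.

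Split by depth, the differences in Kupffer cells of 2000 UMIs or more followed those of all cells, since they hold most UMIs; 98 of 2048 genes (4.79%) were called higher and 29 (1.42%) lower. There Timd4 had a log2 ratio of −1.93 (−2.74 to −1.22), Fcna −1.44, Cd207 −1.20, Fkbp5 −2.67, Hmox1 −1.21 and Ccr2 1.66. The 28 hKO cells under 2000 UMIs held few counts: Timd4 had 0 UMIs against 23 in the 175 WT cells, and Fkbp5 0 against 19, which gives no ratio beyond a bound. Fcna had 14 UMIs in hKO and 262 in WT at that depth (−1.71), Cd207 4 and 83 (−1.85), and Folr2 23 and 173 (−0.39). In these shallow cells 205 of 1619 genes (12.7%) were called higher and 55 (3.40%) lower. The identity list summed to 4603 CPM in hKO and 7631 CPM in WT in shallow cells, and to 4146 and 6665 CPM in deeper ones, so its sum was lower in hKO at both depths.

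Macrophages with at least 3 UMIs of Vsig4 and Cd5l but none of Clec4f, 200 in hKO and 373 in WT, lay between the Kupffer cells and the C1q macrophages in Fcna, Cd207 and Folr2. Fcna stood there at 114 CPM in hKO and 482 CPM in WT (log2 −2.08), Cd207 at 58.0 and 282 CPM (−2.28), and Folr2 at 36.0 and 107 CPM (−1.57). They did not lie between in every gene: in hKO their CPM of Timd4, Ccr2 and S100a4 were below those of both other populations. Timd4 had 1 UMI in hKO and 16 in WT. Ccr2 stood at 107 CPM in hKO and 91.0 CPM in WT in these cells (0.24), and S100a4 at 167 and 70.7 CPM (1.24).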

How the data were processed

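What the authors deposited is, per the file headers, unnormalized UMI counts from Cell Ranger 7.1.0, one for each gene in each barcode; the other deposited columns name the genes and barcodes. Build mm9, Seurat 3 and R 3.0 are named in the submitters' processing notes.

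Members were gated as stated, UMIs were summed over members of a library and scaled to CPM, and log2 ratios have exact conditional binomial 95% intervals, with a count of 0 replaced by 3, taken over all cells of the group. The ratios recovered known folds on simulated counts, drawn independently for each gene from the pooled WT levels. That simulation had no clumping of UMIs in single cells and no difference in free RNA between libraries. It therefore checks the computation and not the calls in these data. The members and gene lists (31 lists, 437 genes) were chosen with earlier results of these data known. Named genes are the 12 highest and 12 lowest called, marker genes, Fabp5, up to 4 genes per list with the largest ratios, and the 8 highest and 8 lowest against C1q macrophages; mitochondrial, ribosomal-protein, hemoglobin, immunoglobulin, T-cell-receptor and predicted genes, and genes over 10 times higher in another gated population, are left out of the 12 and 8. A few genes of these lists are not reported here. Other populations (B, T or NK and 6 more) were gated by at least 5 UMIs of at least 2 markers at 3 or more times their share of the library, a rule set after the data were seen. Doublets were kept: Scrublet called 0.0175% of hKO barcodes and 0% of WT barcodes, too few to have worked, so its 1049 hKO and 777 WT highest scores were left out only as an alternative. Python 3.11.15, scipy 1.17.1 and scanpy 1.11.5 were used. Alternatives were mitochondrial limits of 10% and 50%, both depths, stricter and looser gates, other scalings, a floor of 50 CPM and thinning to 1000 UMIs per cell.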

Additional observations from a re-analysis of the deposited data

Results flagged for a closer look

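Barcodes over the mitochondrial limit that otherwise passed the gate numbered 42 in hKO and 116 in WT, and no comparison above uses them. Their median depth was 1267 UMIs in hKO and 800 in WT. They carried the Kupffer genes too: Folr2 stood at 142 CPM in hKO and 691 CPM in WT, Fcna at 213 and 657 CPM, and Timd4 at 83.0 and 119 CPM. The Timd4 values rest on 7 UMIs in hKO and 14 in WT, too few to place either library above the other.

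Ccl5, a chemokine of T and NK cells, had opposite ratios at the 2 depths. In Kupffer cells under 2000 UMIs it had 15 UMIs in hKO and 16 in WT, a log2 ratio of 2.43 (1.31 to 3.54), and in deeper cells 48 UMIs in hKO and 284 in WT, a ratio of −1.01 (−1.48 to −0.56). Few cells held most Ccl5 UMIs: over all WT Kupffer cells, 96 of 300 lay in 1 cell and 74.7% in 5 cells. Without the cell with the most Ccl5 UMIs in each library, the ratio over all Kupffer cells was −0.38 (−0.85 to 0.07). The difference between the depths was not tested.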

How the results depend on the processing

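Of 1489 single-gene values under the alternatives, 1229 stayed within counting error of the value reported, 258 moved further and 2 called values changed sign, both of them Spp1 (−1.13 as reported), at 0.94 in cells under 2000 UMIs and 1.38 with members that carry other cell types left out. The 94 higher and 24 lower genes became 205 and 55 in cells under 2000 UMIs, of which 51 and 9 were also called in all cells; 157 and 58 after thinning to 1000 UMIs (68 and 14 shared); and 148 and 58 at a floor of 50 CPM (94 and 24 shared). With members over 1% hepatocyte transcripts left out, an alternative chosen after seeing the data, 71 and 27 genes were called (60 and 23 shared). The hKO share of Kupffer cells, 1.05%, was 0.856% with at least 2 Clec4f UMIs, 0.646% without members that carry other cell types and 0.777% without those over 1% hepatocyte transcripts. The WT share, 4.99%, was 3.30% at a mitochondrial limit of 10%, 7.94% among barcodes under 2000 UMIs, 4.14% among deeper ones, 4.07% with at least 2 Clec4f UMIs and 3.10% without members that carry other cell types. The share of Kupffer cells with a Timd4 UMI was 0% in hKO and 11.4% in WT under 2000 UMIs, 22.1% in WT at 2000 UMIs or more, and 0% in hKO and 8.58% in WT in 1 draw of 1000 UMIs, where a count of 0 allows up to 2.73%. The cause of these moves was not tested. No paired analysis was possible because each group has 1 library. Behind the values stand 678487 UMIs of 120 cells in hKO and 2090031 UMIs of 492 cells in WT.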
